A study of Mus musculus with 50 samples.

Results

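The step from 10 to 12 months of age in Tgαq*44 hearts was followed in 10 of the 50 mice of the series, 5 mice at 10 months and 5 at 12 months, taken by the strain and age in their labels. All 10 mice were females with an activated Gαq overexpressed in cardiomyocytes on the FVB background, and both ages carry the label heart failure (HF), so that the 10-month group is itself a stage of the disease. The other groups used were wild-type FVB females of 10 and 12 months (5 mice each), set against the Tgαq*44 groups in a test of the difference in change, and the 4-, 8- and 14-month groups of both strains, whose levels are given beside the results. In every mouse, RNA came from the apex of the heart, so that atria and valves are not covered. All mice shared standard chow and a light cycle of 12 h, whereas neither the hour of dissection nor the sequencing run of each library is stated in the sources used here.

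Gαq couples the receptors of angiotensin II, endothelin and noradrenaline to phospholipase C, and its sustained activity in cardiomyocytes is known to drive hypertrophy and then failure. In a failing ventricle, foetal genes such as the natriuretic peptides and β-myosin return, genes of fatty acid oxidation and the respiratory chain decline, and fibroblasts lay down collagen that lysyl oxidases crosslink. The comparison of 12 with 10 months shows which of these genes moved late in the disease, and the FVB mice of the same ages show which of them moved without the transgene.

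Libraries held 11894392 to 15715833 counts at 10 months and 8772914 to 16947118 counts at 12 months. Levels are given as CPM, read counts scaled to the size of the library with TMM factors, with the mice in the order of their numbers, and a gene is called at an adjusted p under 0.05 in edgeR's quasi-likelihood test. The 12 markers of ventricular cardiomyocytes summed to 66124 to 80112 CPM at 10 months and 57538 to 74411 at 12 months, whereas the 3 detected markers of skeletal muscle summed to at most 1.86 CPM. Gnaq, which encodes Gαq, was at 16.9, 21.1, 25.6, 30.0 and 30.5 CPM at 10 months and at 32.8, 30.4, 40.2, 28.4 and 28.0 at 12 months, overlapping ranges with a log2 fold change of 0.36 ± 0.18 (adjusted p = 0.24). A count per gene does not separate the transgene from the mouse's own Gnaq. Mitochondrially encoded genes took 17.9 ± 3.32% of the counts at 10 months and 14.3 ± 0.964% at 12 months (SD, n = 5 each), a difference of -3.63 percentage points (exact two-sided permutation test, p = 0.016, smallest possible 0.0079). The difference was -2.19 points (p = 0.032, exact permutation test) without 10-month mouse 3, whose share was 23.6% against at most 17.3% in the other 4 mice. This mouse stood apart more widely. It was the highest of its group for 254 of the 397 genes that fell and the lowest for 356 of the 872 that rose. Of the 12-month mice, mouse 5 was nearest to the 10-month group, the lowest of its group for 333 of the risen genes and the highest for 217 of the fallen genes.

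Between 10 and 12 months, 1269 of 15129 genes tested were called (8.39%), of which 872 were higher (5.76%) and 397 lower (2.62%) at 12 months. The median size of a called change was 0.579 in log2, and 206 genes (1.36%) passed a log2 fold change of 1 as well (DEGs), 152 of them higher and 54 lower. In 127 of the DEGs and in 722 of all called genes, the 5 mice of one age did not overlap with those of the other, against 961 genes (6.35%) over all genes tested. The fits that left out 1 mouse called 853 to 1473 genes, and 579 genes were called in all of them. Without 10-month mouse 3, 649 genes were called higher and 204 lower, and 806 of these 853 calls were shared with the full fit in the same direction. Called genes were long when they rose (median summed exon length 6966 bases) and shorter when they fell (3716 bases) in comparison with all genes (4196 bases). With a trend over transcript length and GC content removed as an offset, 1744 genes were called, 985 of them (56.5%) higher, in place of 68.7% higher, and 1099 calls were shared with the same direction. Whether length acted on the calls was not tested. In bulk tissue, fewer cells of a type and less RNA per cell cannot be told apart.

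In FVB mice, the same 2 months changed 1178 genes (7.79%), 748 upwards and 430 downwards. Both strains called 389 genes, 370 of them in the same direction (292 higher and 78 lower), which is 29.2% of the calls in Tgαq*44 mice and 31.4% of those in FVB mice. FVB 12-month mouse 5 stood apart from its group for some shared genes, such as Hipk2 and Ppara, where it lay at 10-month levels. Without it FVB mice called 1784 genes, and 504 were shared with Tgαq*44 mice in the same direction (39.7% and 28.3% of the calls). The FVB count also fell by over a factor of 1.5 without FVB 10-month mouse 5 (707), FVB 12-month mouse 1 (699) or FVB 12-month mouse 3 (743). The change itself differed between the strains for 188 genes (1.24%), 93 of which were called in Tgαq*44 mice, 56 of these higher and 37 lower at 12 months. Leaving out single mice gave 103 to 274 such genes, with 103 without 12-month mouse 1 and 119, 122, 123 and 124 without FVB 10-month mice 5 and 2 and FVB 12-month mice 3 and 1. Of the 95 others, 79 were called in FVB mice.

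**Figure D1:**
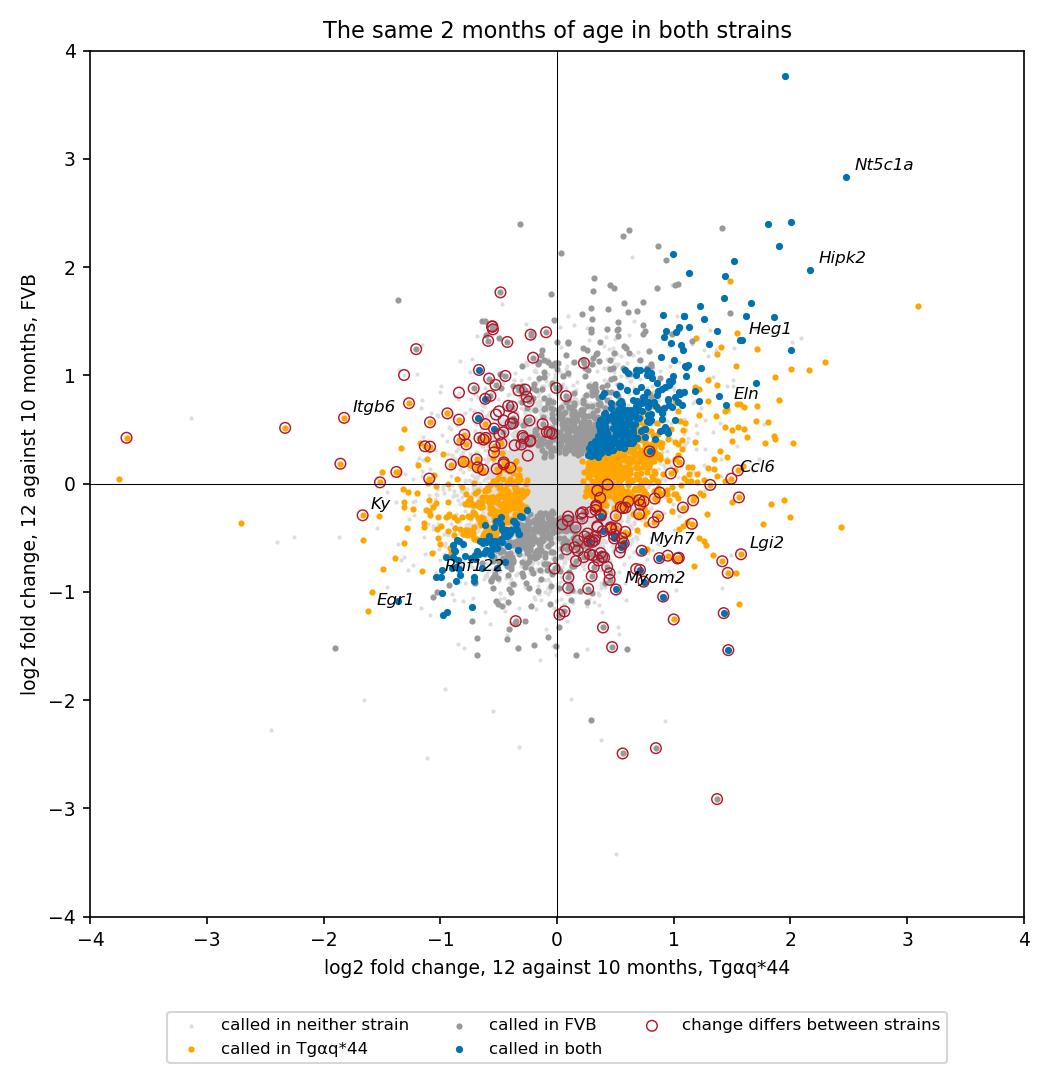
Each point is 1 of 15129 genes, with the log2 fold change of 12 against 10 months in Tgαq*44 mice on the x axis and in FVB mice on the y axis (5 mice per group). Genes called in both strains (blue) lie mostly in the upper right and lower left, 370 of 389 with the same sign, and genes whose change differed between the strains (red rings) lie away from that diagonal.

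Many of the larger rises with a small spread were shared by both strains. Hipk2 (chr6:38694390-38876165 on GRCm38.p6), a nuclear kinase that acts on p53 and other regulators of stress responses, was at 32.9, 45.0, 45.5, 43.9 and 43.1 CPM at 10 months and at 157, 219, 190.2, 215 and 166 at 12 months. The groups were far apart, and the level rose 4.49-fold (log2 fold change 2.17 ± 0.23, adjusted p = 9.98e-09). In FVB mice, Hipk2 was at 34.9, 54.3, 43.5, 47.6 and 43.9 CPM at 10 months and at 220.2, 205, 199, 211 and 48.2 at 12 months, so that 4 of the 5 older mice lay above 190 and mouse 5 lay at the 10-month level. The rise in FVB mice (log2 fold change 1.98 ± 0.23, adjusted p = 1.38e-07) did not differ from that in Tgαq*44 mice beyond its error (difference 0.19 ± 0.31, adjusted p = 0.90). Over all ages, Hipk2 had means of 196, 106, 42.1, 189 and 104 CPM at 4, 8, 10, 12 and 14 months in Tgαq*44 mice and of 247, 118, 44.9, 177 and 32.1 in FVB mice. The level was thus low in 3 of the 10 groups, Tgαq*44 at 10 months and FVB at 10 and 14 months, and the 12-month level of Tgαq*44 mice was close to their level at 4 months.

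The same 3 groups were the lowest of the 10 for Nt5c1a, Ppara and Heg1. Nt5c1a encodes the cytosolic 5′-nucleotidase of striated muscle that makes adenosine from AMP. It was at 0.766, 1.36, 1.21, 2.67 and 1.57 CPM at 10 months and at 6.94, 8.83, 6.86, 9.09 and 11.6 at 12 months (log2 fold change 2.48 ± 0.43, adjusted p = 1.35e-04), with no overlap, and at 2.79 and 20.3 CPM on average in FVB mice of these ages. Ppara encodes the nuclear receptor that drives genes of fatty acid oxidation. Its values were 5.36, 7.36, 7.05, 10.0 and 7.55 CPM at 10 months and 21.3, 25.1, 22.4, 21.4 and 11.4 CPM at 12 months (log2 fold change 1.43 ± 0.26, adjusted p = 1.70e-04). The lowest 12-month value, that of mouse 5, was only slightly above the highest 10-month value. In FVB mice Ppara rose from 12.6 ± 4.15 to 41.4 ± 15.8 CPM (SD, n = 5) and stood at 14.7 CPM in mouse 5. Heg1, an endothelial receptor needed for the integrity of heart and vessels, went from between 68.4 and 94.2 CPM at 10 months to between 194 and 287 CPM at 12 months (log2 fold change 1.57 ± 0.18, adjusted p = 8.17e-08). In all 4 genes the FVB mice also passed the test, and each of these FVB calls held when any 1 FVB mouse was left out. The libraries were sequenced in several runs, and since the run of each is not stated in the sources used here, age and run cannot be told apart.

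Further rises had little spread. Cds2, an enzyme of phosphatidylinositol resynthesis, was at 139.7, 149, 148, 159 and 153 CPM at 10 months and at 292, 284, 317, 287 and 263 CPM at 12 months, so that each older mouse lay over 100 CPM above each younger one (log2 fold change 0.95 ± 0.11, adjusted p = 6.81e-08). In FVB mice the rise was 0.78 ± 0.11 (adjusted p = 4.40e-06). Tsc1, the partner of tuberin that restrains mTORC1, rose by 1.06 ± 0.13, and Hif1an, the asparagine hydroxylase that restrains HIF, rose by 1.30 ± 0.18 (adjusted p = 3.23e-07 and 2.09e-06). Med13l of the Mediator complex (1.18 ± 0.14), the telomerase-associated Tep1 (1.07 ± 0.15) and the glucose-sensing factor Mlxip (0.95 ± 0.13) rose as well. The phosphatase Ptpn11, which passes growth factor signals to Ras, rose by 0.75 ± 0.10, from between 148 and 188 CPM at 10 months to between 256 and 307 CPM at 12 months. The less characterised 2610507B11Rik went from between 135 and 193 CPM at 10 months to between 409 and 546 CPM at 12 months (1.62 ± 0.19). In none of these genes did the change differ between strains, with adjusted p of 0.21 or more for the difference. At 8 months Cds2 was at 257 CPM in Tgαq*44 mice and at 14 months at 264, both close to the 12-month mean of 289 and away from 149.6 at 10 months.

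Among genes that fell in both strains, Rnf122, a ubiquitin ligase, was at 23.4, 24.7, 28.9, 23.6 and 25.3 CPM at 10 months and at 11.2, 9.93, 12.7, 12.2 and 15.4 at 12 months, with no overlap (log2 fold change -1.04 ± 0.15, adjusted p = 7.50e-06). It fell by 0.86 in FVB mice. Wif1, a secreted inhibitor of Wnt signalling, was at 34.5, 32.7, 42.9, 25.4 and 42.3 CPM and then at 21.2, 19.7, 11.4, 16.9 and 20.1 CPM (log2 fold change -0.99 ± 0.20, adjusted p = 7.09e-04), and the FVB change was of the same size (-1.01 ± 0.20). The elongation factor subunit Eef1d went from between 102 and 119 CPM at 10 months to between 69.00 and 75.8 CPM at 12 months, the mitochondrial ribosomal protein Mrpl44 from between 36.3 and 55.7 CPM at 10 months to between 22.4 and 26.9 CPM at 12 months, and the cleavage factor subunit Cpsf6 from between 26.3 and 33.3 CPM at 10 months to between 17.9 and 22.3 CPM at 12 months, each without overlap and each called in FVB mice too. The deubiquitinase Usp10 fell by 0.86 on the log2 scale (adjusted p = 3.52e-05). Its call in FVB mice was lost without FVB 12-month mouse 1, FVB 12-month mouse 2 or FVB 12-month mouse 3 (adjusted p up to 0.061).

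**Figure D2:**
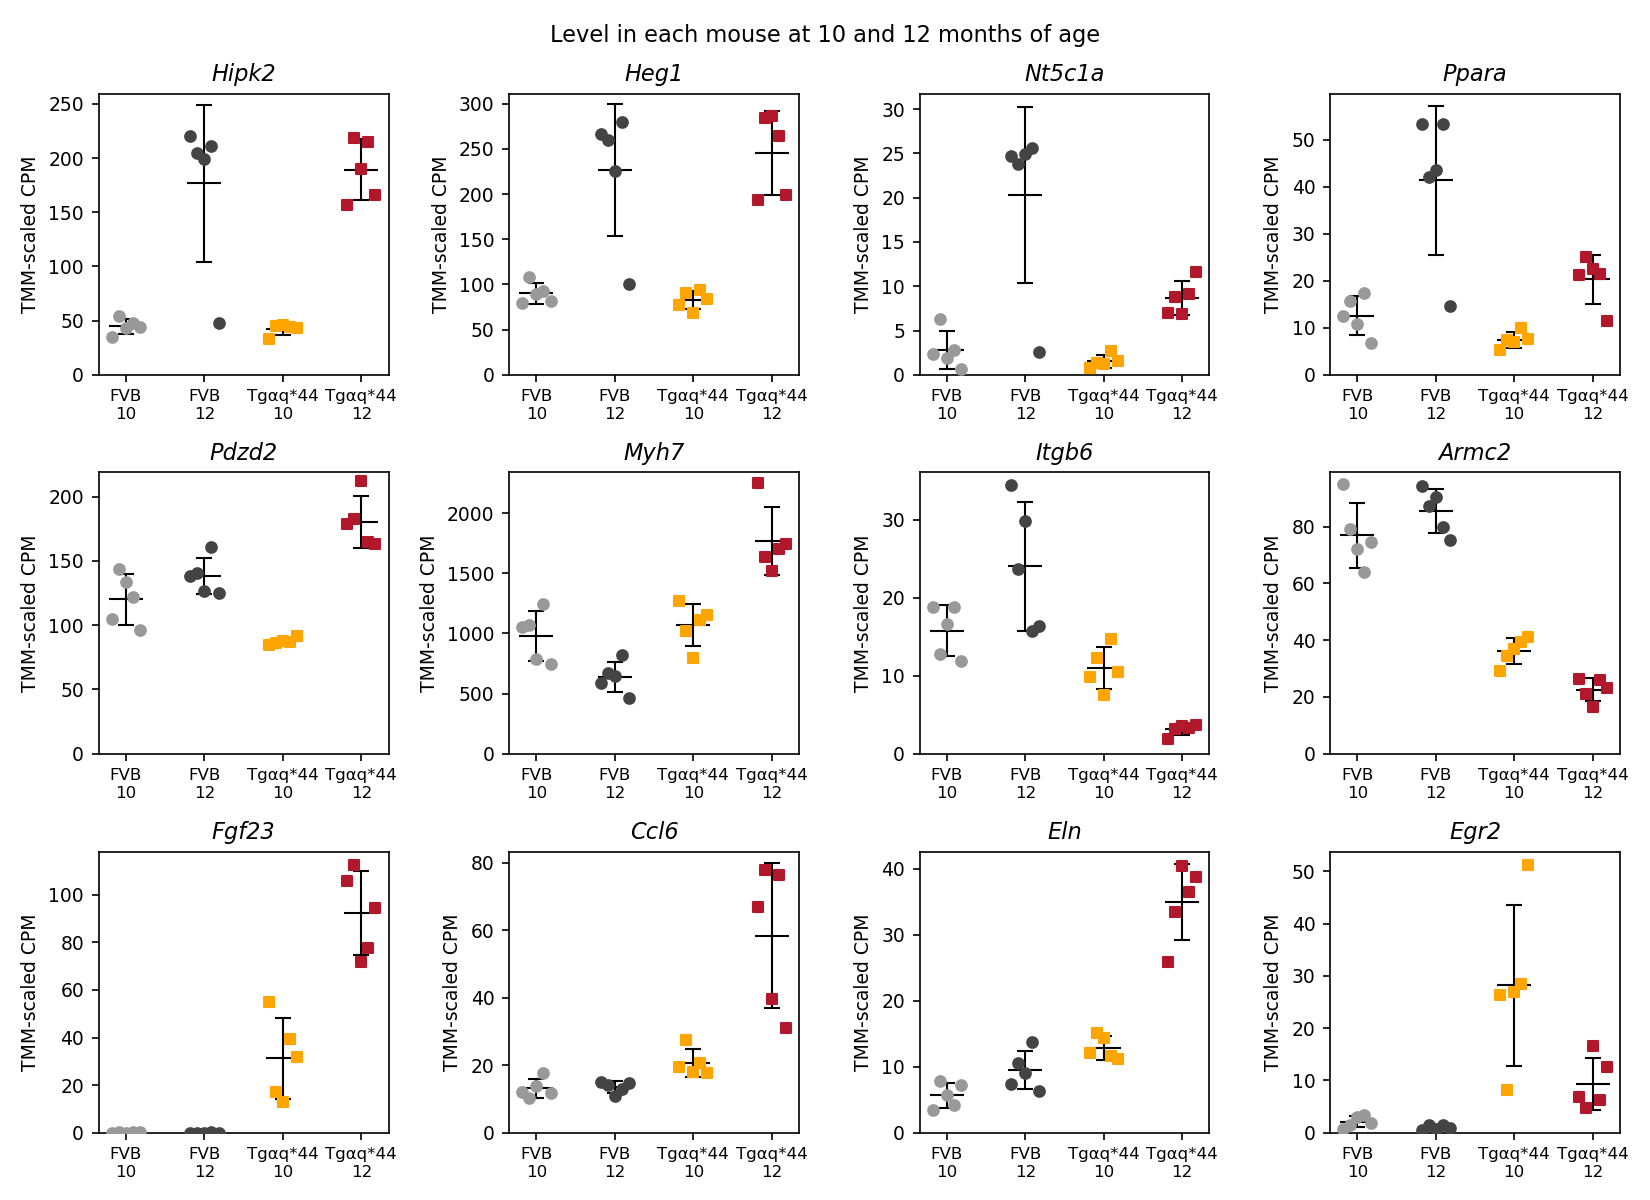
Levels in CPM of 12 genes in single mice (points) with the mean ± SD of 5 mice, for Tgαq*44 and FVB mice of 10 and 12 months. Hipk2 and Ppara rise in both strains with 1 FVB mouse of 12 months at the 10-month level, whereas Itgb6 and Ccl6 separate the ages in Tgαq*44 mice and overlap between the ages in FVB mice.

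**Figure D3:**
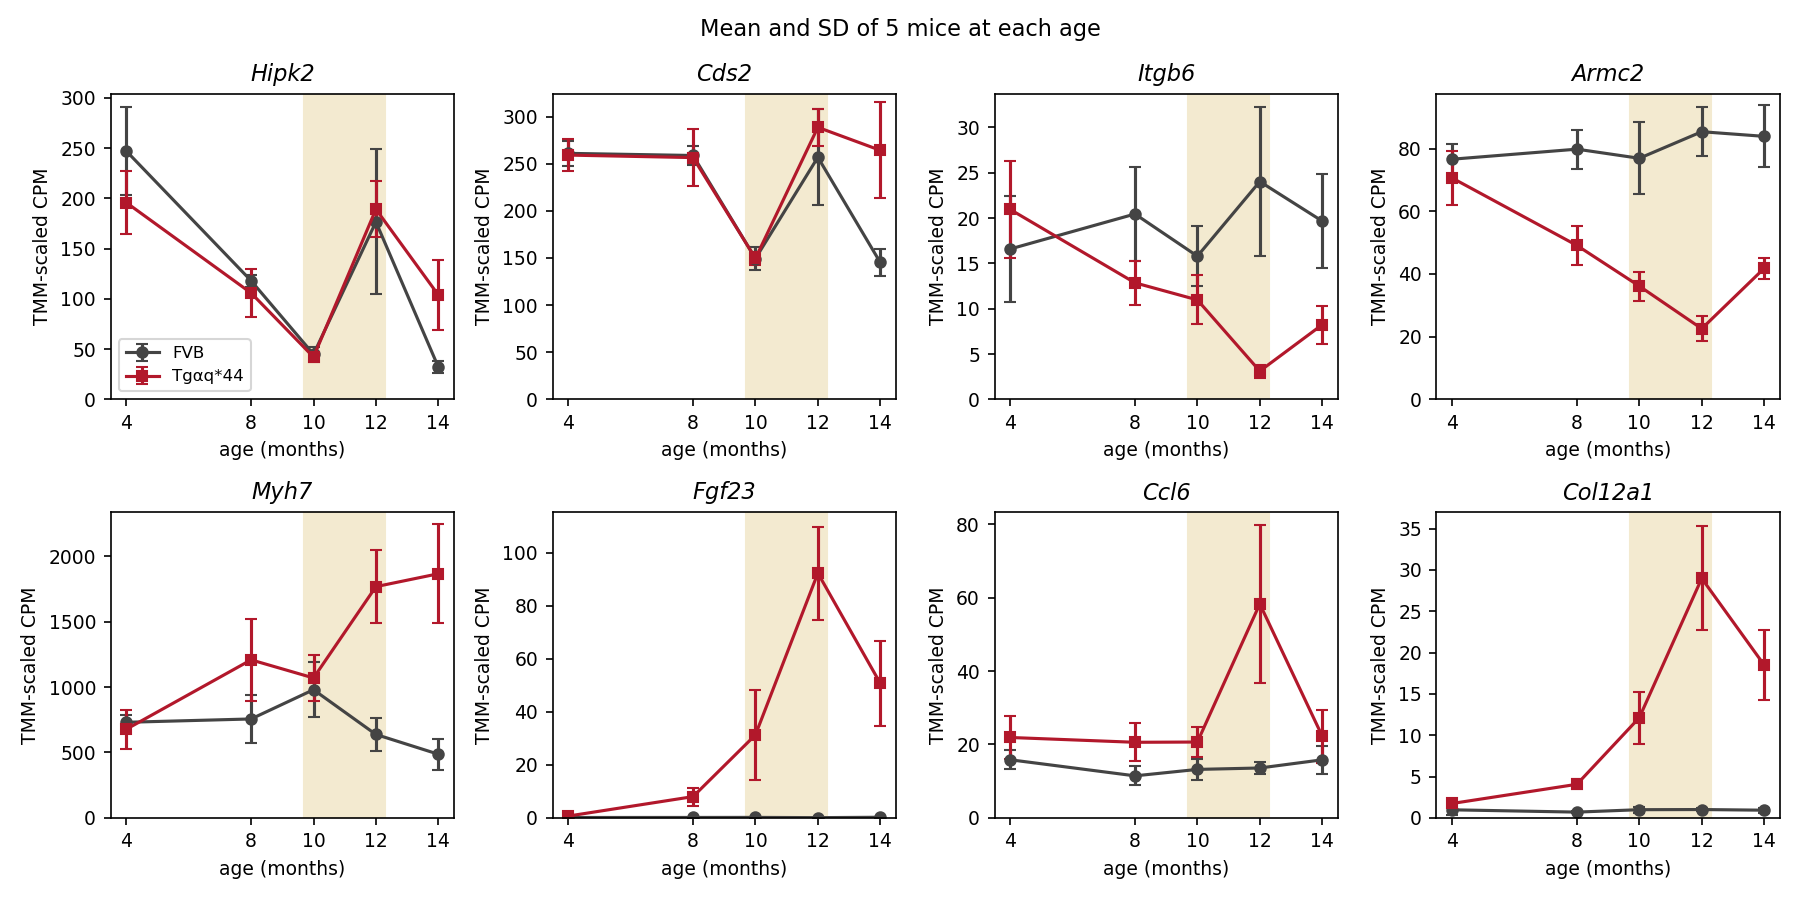
Mean ± SD of 5 mice in CPM against age in months for both strains, with the step from 10 to 12 months shaded. Hipk2 is low in Tgαq*44 mice at 10 months and in FVB mice at 10 and 14 months, at 44.9 and 32.1 CPM in the latter.

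A group of genes fell in Tgαq*44 mice with a change that differed from that in FVB mice. Itgb6 (chr2:60598292-60722643 on GRCm38.p6) encodes the β6 integrin subunit, which as αvβ6 activates latent TGF-β in epithelia. It was at 9.81, 12.33, 7.55, 14.7 and 10.5 CPM at 10 months and at 1.88, 3.18, 3.51, 3.30 and 3.70 at 12 months. Every older mouse was below every younger one, a fall to a level 3.55 times lower (log2 fold change -1.83 ± 0.26, adjusted p = 4.18e-06), and FVB mice of the same ages were at 15.8 ± 3.28 and 24.0 ± 8.22 CPM (SD, n = 5; difference between strains -2.43 ± 0.35, adjusted p = 4.48e-05). Ky, a protein of the muscle Z-disc region needed for muscle maintenance, was at 10.2, 11.6, 18.4, 14.2 and 10.7 CPM and then at 2.70, 2.01, 4.87, 3.20 and 7.47 CPM (log2 fold change -1.67 ± 0.25, adjusted p = 1.21e-05). Mouse 5 was the highest of the older mice. The strain difference of Ky (-1.37, adjusted p = 0.023) was lost without FVB 10-month mouse 5, FVB 12-month mouse 1, 10-month mouse 3, 12-month mouse 1 or 12-month mouse 2 (adjusted p up to 0.062).

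Lrrc55, an auxiliary subunit of BK potassium channels, went from between 5.79 and 11.5 CPM at 10 months to between 1.82 and 5.03 CPM at 12 months, and the heparan sulphate sulphotransferase Hs3st5 from between 1.84 and 2.49 CPM at 10 months to between 0.325 and 1.22 CPM at 12 months. Armc2, an armadillo-repeat protein of cilia and flagella, went from between 29.0 and 40.9 CPM at 10 months to between 16.4 and 26.3 CPM at 12 months. All 3 separated the ages and changed differently from FVB mice (strain difference -1.53, -1.49 and -0.83, adjusted p = 0.0097, 0.0048 and 0.0025). Lrtm1 went from between 117 and 319 CPM at 10 months, with mouse 3 the highest, to between 73.0 and 127 CPM at 12 months, where the ages overlapped (log2 fold change -0.84 ± 0.17, adjusted p = 7.67e-04). The kinesin Kif6 fell by 1.09 on the log2 scale, with overlap, from a group in which mouse 3 stood at 5.98 CPM against 1.46 to 2.49 in the other 4. Without that mouse the change was -0.62 for Kif6 and -0.55 for Lrtm1 (adjusted p = 0.027 and 0.018), and both calls were lost in a fit of only the groups compared (adjusted p = 0.063 and 0.072). At 14 months, several of these genes were higher again. Itgb6 was at 8.24 ± 2.09 CPM (SD, n = 5; 14 against 12 months 1.41 ± 0.26, adjusted p = 8.73e-04), Hs3st5 at 2.90 ± 0.686 CPM (1.82 ± 0.23, adjusted p = 1.30e-06) and Armc2 at 41.8 ± 3.32 CPM (0.89 ± 0.11, adjusted p = 1.61e-06). The comparison of 14 with 12 months, in which 494 genes were called (3.27%), shares the 12-month mice with that of 12 with 10 months. A chance extreme at 12 months would enter both, so a return at 14 months is no separate evidence for genes named by their change. This holds for every comparison of 14 with 12 months given here.

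Other genes fell with no overlap and no called strain difference. Rpl3l, the ribosomal protein of striated muscle that takes the place of Rpl3, was at 68.8, 60.8, 69.8, 60.8 and 76.1 CPM at 10 months and at 40.5, 35.6, 34.8, 43.5 and 52.1 at 12 months (log2 fold change -0.70 ± 0.11, adjusted p = 1.68e-05). Yipf7, a membrane protein of the early secretory pathway, went from between 56.5 and 77.3 CPM at 10 months to between 32.9 and 45.9 CPM at 12 months. Both were higher at 14 months, with means of 68.4 and 71.8 CPM (14 against 12 months 0.73 ± 0.11 and 0.81 ± 0.10, adjusted p = 3.55e-05 and 1.30e-06). Hspb6, the small heat shock protein of muscle also known as Hsp20, was at 1967, 1801, 3034, 1795 and 2166 CPM and then at 919.8, 912, 932, 1181 and 1415 CPM (log2 fold change -1.01 ± 0.20, adjusted p = 6.11e-04), and it was the only one of 21 heat shock genes called. Nos2, the inducible nitric oxide synthase, fell from between 21.4 and 26.3 CPM at 10 months to between 6.35 and 18.9 CPM at 12 months with mouse 5 the highest at 12 months. The tumour suppressor Trp53 went from between 75.5 and 94.2 CPM at 10 months to between 45.6 and 61.0 CPM at 12 months (log2 fold change -0.70 ± 0.13, adjusted p = 1.69e-04), and the repressor Bcl6 from between 84.3 and 149 CPM at 10 months to between 29.0 and 80.9 CPM at 12 months (log2 fold change -1.03 ± 0.23, adjusted p = 0.0026). The sulphotransferase Gal3st3 fell by 1.02 on the log2 scale without overlap.

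Genes that rose with a strain difference included Pdzd2 (chr15:12359711-12739924), a protein with many PDZ domains and the smallest p of the whole comparison. It was at 84.7, 86.5, 88.0, 86.7 and 91.4 CPM at 10 months and at 179, 182, 212, 164 and 163 at 12 months, with the 10-month mice within 7 CPM of each other (log2 fold change 1.04 ± 0.10, adjusted p = 1.33e-09). FVB mice had 120.1 ± 19.7 and 138 ± 14.3 CPM (SD, n = 5; strain difference 0.84 ± 0.14, adjusted p = 6.26e-04). Lgi2 encodes a secreted leucine-rich repeat protein known from neurons. It was at 1.69, 2.52, 0.926, 1.48 and 2.21 CPM and then at 3.88, 3.83, 9.58, 5.27 and 4.04 CPM, mouse 3 being the highest, and FVB means stayed at or below 0.600 CPM at these ages (strain difference 2.23 ± 0.49, adjusted p = 0.0096). Rhobtb1, an atypical small GTPase, rose from between 88.9 and 146 CPM at 10 months to between 168 and 234 CPM at 12 months in Tgαq*44 mice and fell from 214 ± 38.1 to 133 ± 16.3 CPM (SD, n = 5) in FVB mice (strain difference 1.56 ± 0.25, adjusted p = 2.05e-04). The serine protease inhibitor Serpinb6b did the same, from between 50.9 and 60.5 CPM at 10 months to between 66.1 and 98.4 CPM at 12 months against a fall by 0.51 in log2 in FVB mice. The little-described 2610028H24Rik, under 4 CPM in every mouse of the comparison, rose by 1.47 ± 0.27 and had the largest positive strain difference among the named genes (3.01 ± 0.45). Hip1, a clathrin adaptor, rose in both strains, by 0.79 ± 0.09 in Tgαq*44 and 0.30 ± 0.09 in FVB mice. The difference of 0.49 (adjusted p = 0.024) was lost without FVB 10-month mouse 2, 12-month mouse 1 or 12-month mouse 2, and the FVB call without FVB 10-month mouse 1, FVB 10-month mouse 5, FVB 12-month mouse 2 or FVB 12-month mouse 4 (adjusted p up to 0.065 and 0.087).

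Of the 24 genes of the contractile apparatus tested, 5 rose and 1 fell (3 rose without 10-month mouse 1, 10-month mouse 3 or 12-month mouse 1), with a median log2 fold change of -0.03 against -0.0032 over all genes. Over all genes tested 5.76% rose and 2.62% fell, shares to be set beside this and the following lists. The rises were in genes of the M-band, the titin cap and myosin. Myom1, the M-band protein myomesin that ties thick filaments together, was at 302, 325, 246, 385 and 356 CPM at 10 months and at 607, 612, 635, 582 and 539 at 12 months, with no overlap (log2 fold change 0.88 ± 0.12, adjusted p = 3.18e-06). In FVB mice Myom1 rose too (0.49, adjusted p = 0.0078), a call that held with any FVB mouse left out. Its strain difference was not called (0.39, adjusted p = 0.32). Tcap, or telethonin, which caps titin at the Z-disc, went from between 117 and 144 CPM at 10 months to between 169 and 223 CPM at 12 months (log2 fold change 0.63 ± 0.17, adjusted p = 0.013). Mylk3, the cardiac myosin light chain kinase, went from between 123 and 161 CPM at 10 months to between 167 and 205 CPM at 12 months (log2 fold change 0.38 ± 0.09, adjusted p = 0.0036) and changed differently in FVB mice (strain difference 0.67 ± 0.12, adjusted p = 0.0018). With no filter on low counts the calls of Tcap and Mylk3 were lost (adjusted p = 0.053 for both), and that of Mylk3 also in a fit of only the groups compared (adjusted p = 0.061). Myom2, a second myomesin, was at 461, 474, 410.2, 466 and 563 CPM and then at 793, 614, 724, 608 and 631 CPM without overlap (log2 fold change 0.50 ± 0.15, adjusted p = 0.023). Its call was lost without 10-month mouse 1, 10-month mouse 2, 10-month mouse 3, 10-month mouse 4, 12-month mouse 1 or 12-month mouse 3 (adjusted p up to 0.092). In FVB mice Myom2 fell from 746 ± 131 to 379 ± 31.6 CPM (SD, n = 5), and the strain difference of 1.48 ± 0.21 (adjusted p = 4.48e-05) held with any mouse left out. Ldb3, the Z-disc protein Cypher, fell by 0.59 on the log2 scale, from between 1434 and 2081 CPM at 10 months to between 960.0 and 1279 CPM at 12 months.

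Both cardiac myosin heavy chains rose. Myh7, the slow β chain that rodent ventricles re-express in failure, was at 1270.4, 1021, 799, 1107 and 1153 CPM at 10 months and at 2247, 1633, 1521, 1701 and 1742 CPM at 12 months, with no overlap (log2 fold change 0.73 ± 0.18, adjusted p = 0.0052). In FVB mice Myh7 went the other way, from 980.2 ± 209 to 638 ± 129 CPM (SD, n = 5). This FVB fall was lost without FVB 10-month mouse 4, FVB 12-month mouse 1 or FVB 12-month mouse 5 (adjusted p up to 0.072), while the strain difference of 1.34 ± 0.25 (adjusted p = 0.0018) held with any mouse left out. Myh6, the fast α chain of the adult mouse ventricle, was at 3595, 4575, 2496, 4476 and 5041 CPM and then at 6568, 5188, 4487, 6075 and 6512 CPM, overlapping through 12-month mouse 3 (log2 fold change 0.51 ± 0.15, adjusted p = 0.018). The call was lost without 10-month mouse 1, 10-month mouse 3 or 12-month mouse 1 (adjusted p up to 0.10). Myh6 was higher at the earlier ages of Tgαq*44 mice, with means of 11271 CPM at 4 and 9515 CPM at 8 months. The promoters of both chains hold the MCAT element, CATTCC or its reverse complement GGAATG, which TEAD factors bind in muscle genes. The windows below run from 250 bases before to 50 bases after the RefSeq start on GRCm38.p6, for Myh6 at chr14:54966558-54966857, minus strand and for Myh7, shown after its values were seen, at chr14:54994577-54994876, minus strand, and capitals mark the element.
Myh6: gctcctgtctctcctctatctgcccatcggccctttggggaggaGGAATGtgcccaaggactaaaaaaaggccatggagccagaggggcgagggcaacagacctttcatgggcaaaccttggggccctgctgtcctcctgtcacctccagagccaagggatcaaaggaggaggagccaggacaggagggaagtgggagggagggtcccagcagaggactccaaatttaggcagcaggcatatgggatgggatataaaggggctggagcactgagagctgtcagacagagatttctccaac
Myh7: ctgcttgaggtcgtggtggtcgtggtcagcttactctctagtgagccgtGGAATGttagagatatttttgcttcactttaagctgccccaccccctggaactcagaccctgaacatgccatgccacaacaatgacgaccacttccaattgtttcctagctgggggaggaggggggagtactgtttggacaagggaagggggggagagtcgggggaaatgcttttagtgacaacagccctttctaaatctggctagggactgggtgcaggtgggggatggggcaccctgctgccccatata

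The element begins 206 bases before the start of Myh6 and 201 bases before that of Myh7. Of all 27025 RefSeq promoters of this length, 14.6% hold it on either strand, against 12.29% of the 10999 of genes tested, and among called genes with a promoter in the table it was in 90 of 633 risen genes (14.2%) and 40 of 277 fallen genes (14.4%). A match of these letters is a description of the sequence alone.

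Of 13 foetal and stress genes of cardiomyocytes tested, 3 rose, Myh7, Ctgf and Xirp2, and none fell (median 0.24). Leaving out single mice gave 2 to 3 rises and 0 to 1 falls, and the length and GC offset 4 rises and 2 falls. Xirp2, an actin-binding protein of the intercalated disc, was at 1206, 925, 697, 1349 and 998 CPM and then at 2127, 1892, 2049, 1895 and 1555 CPM, with no overlap (log2 fold change 0.88 ± 0.16, adjusted p = 1.54e-04). Nppa, atrial natriuretic peptide, ranged from 1359 to 2941 CPM at 10 months and from 1059 to 3519.9 CPM at 12 months, and Nppb, the B-type peptide, from 659 to 1196 and 651 to 1197 CPM. Their ranges overlapped and neither was called (log2 fold changes 0.16 ± 0.36 and 0.17 ± 0.28, adjusted p = 0.86 and 0.79). Acta1, skeletal α-actin, was at 8513, 5047, 6927, 5065 and 6106 CPM and then at 2509, 2385, 3578, 2947 and 4815 CPM. The ages did not overlap, but the change did not pass the test (log2 fold change -0.96 ± 0.36, adjusted p = 0.095). It passed in 3 of the 10 alternative settings, a fit of only the groups compared (adjusted p = 0.0060), one with the mouse number as a block (adjusted p = 0.031) and the length and GC offset (adjusted p = 0.034). Fgf23 (chr6:127072902-127081408 on GRCm38.p6) encodes the phosphate hormone that is normally made in bone. In these hearts it was at 54.9, 17.3, 12.9, 39.5 and 32.0 CPM at 10 months and at 106, 113, 71.6, 77.6 and 94.4 CPM at 12 months, so that every older mouse was above every younger one (log2 fold change 1.56 ± 0.25, adjusted p = 3.49e-05). Its means were 0.664 CPM at 4, 8.01 CPM at 8 and 50.8 CPM at 14 months, and in FVB mice no age reached a mean of 0.3 CPM. The fall from 12 to 14 months (-0.86 ± 0.25, adjusted p = 0.039) was lost without 12-month mouse 1, 12-month mouse 2, 12-month mouse 5, 14-month mouse 4 or 14-month mouse 5 (adjusted p up to 0.17).

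Of 23 calcium-handling genes, 2 rose and 1 fell, and of 32 potassium, sodium and pacemaker channels, 1 rose and 3 fell. Over all genes 5.76% rose and 2.62% fell. Without 10-month mouse 3, 1 channel gene fell, and the rises of calcium genes numbered 0 without 12-month mouse 1, 1 without 10-month mouse 1 or 3 and 4 without 10-month mouse 4. Atp2a2 encodes SERCA2a, the pump that returns calcium to the sarcoplasmic reticulum in relaxation. It was at 5528, 5724, 7733, 5348 and 6354 CPM at 10 months and at 4387, 4449, 4883, 4331 and 4724 at 12 months, with no overlap (log2 fold change -0.43 ± 0.08, adjusted p = 3.88e-04), and at 8923 CPM on average at 4 months. FVB means of 10 and 12 months were 11420.5 and 11360.2 CPM, and the difference in change between the strains was -0.42 ± 0.12 (adjusted p = 0.056). At 14 months Atp2a2 was higher than at 12 months in Tgαq*44 mice (0.35 ± 0.08, adjusted p = 0.011). Hcn4, the pacemaker channel, was at 1.69, 3.68, 2.07, 3.35 and 1.78 CPM and then at 1.18, 0.649, 0.559, 1.24 and 1.66 CPM (log2 fold change -1.23 ± 0.29, adjusted p = 0.0033), with the ages just apart. Kcnip2, the subunit that sets the transient outward current, was at 260.4, 345, 547, 230.2 and 389 CPM and then at 217, 211, 205, 288 and 230.0 CPM, overlapping (log2 fold change -0.62 ± 0.15, adjusted p = 0.0033), and was not called without 10-month mouse 3 (adjusted p = 0.057).

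Genes of energy metabolism leaned downwards at 12 months, and most of the calls rested on 10-month mouse 3. Of 33 genes of fatty acid uptake and oxidation, 5 fell and 1 rose (median -0.14), and without that mouse 1 fell and 1 rose. Also 1 fell without 12-month mouse 2, and 3 fell without 12-month mouse 4. Hadha, the α subunit of the mitochondrial trifunctional protein that carries out the last steps of β-oxidation, was at 388, 446, 616, 401 and 462 CPM at 10 months and at 344, 306, 294, 321 and 343 at 12 months. It separated the ages with or without mouse 3 and was called in every fit (log2 fold change -0.52 ± 0.10, adjusted p = 1.81e-04). Its partner Hadhb was at 267, 331, 357, 299 and 357 CPM and then at 271, 231, 226, 283 and 262 CPM, overlapping (log2 fold change -0.34 ± 0.10, adjusted p = 0.030), and was lost without 10-month mouse 3, 10-month mouse 5, 12-month mouse 2 or 12-month mouse 3 (adjusted p up to 0.097). The carnitine carrier Slc25a20 fell by 0.37 on the log2 scale and was lost without 10-month mouse 3, 12-month mouse 2 or 12-month mouse 4 (adjusted p up to 0.21). The isomerase Eci1 fell by 0.36 and was lost without 10-month mouse 3, 12-month mouse 1, 12-month mouse 2 or 12-month mouse 4 (up to 0.18), and the electron transfer enzyme Etfdh fell by 0.35 and was lost without 10-month mouse 3, 12-month mouse 2 or 12-month mouse 3 (up to 0.15). Cpt1a, the carnitine palmitoyltransferase that admits fatty acids to mitochondria, rose instead, from 32.0, 34.5, 23.6, 35.6 and 28.5 CPM to 41.2, 50.0, 50.6, 43.2 and 52.97 CPM with no overlap (log2 fold change 0.63 ± 0.13, adjusted p = 9.30e-04), and rose in FVB mice (0.46 ± 0.13), a call lost there without FVB 10-month mouse 5, FVB 12-month mouse 1 or FVB 12-month mouse 2 (adjusted p up to 0.064).

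Of 22 citric acid cycle genes, 4 fell and none rose (median -0.23, with 21 of the 22 lower), and 1 fell without 10-month mouse 3. Cs, citrate synthase, was at 1857, 1838, 2508, 1779.7 and 1963 CPM at 10 months and at 1566, 1368, 1251, 1263 and 1463 at 12 months, with no overlap, and was called in every fit (log2 fold change -0.53 ± 0.10, adjusted p = 4.71e-04). It fell in FVB mice as well (-0.34, adjusted p = 0.028), with no called strain difference (-0.18, adjusted p = 0.71). This FVB call was lost without FVB 10-month mouse 4 or 5 or FVB 12-month mouse 1, 2 or 3 (adjusted p up to 0.13). Ogdh, a subunit of the 2-oxoglutarate dehydrogenase complex, was at 2680.5, 2761, 3692, 2511 and 3284 CPM and then at 2217, 2068, 2161, 2097 and 2324 CPM (log2 fold change -0.46 ± 0.12, adjusted p = 0.0080). It was lost without 10-month mouse 3 (adjusted p = 0.054). Dlst of the same complex (log2 fold change -0.36 ± 0.10, adjusted p = 0.017) was lost without 10-month mouse 3 or 12-month mouse 3 (adjusted p up to 0.096). Suclg1, a subunit of succinyl-CoA synthetase (log2 fold change -0.30 ± 0.10, adjusted p = 0.040), was lost without 10-month mouse 2, 10-month mouse 3, 10-month mouse 5, 12-month mouse 2, 12-month mouse 4 or 12-month mouse 5 (adjusted p up to 0.090). Bdh1, the ketone enzyme that failing hearts are known to raise, went down here, from between 109 and 184 CPM at 10 months to between 82.5 and 115 CPM at 12 months (log2 fold change -0.61 ± 0.16, adjusted p = 0.011), and was lost without 10-month mouse 3 (adjusted p = 0.050), while its difference from the change in FVB mice (-1.03 ± 0.23, adjusted p = 0.0097) held with any mouse left out.

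Of 10 mitochondrially encoded genes tested, 9 were lower and 2 were called, mt-Co1 of complex IV and mt-Nd1 of complex I. mt-Co1 was at 61147, 68569, 110322, 68910.3 and 72118 CPM at 10 months and at 62587, 57689.8, 44169, 54509.9 and 49866 CPM at 12 months, overlapping (log2 fold change -0.50 ± 0.14, adjusted p = 0.014), and mt-Nd1 fell by 0.47 on the log2 scale. Both were lost without 10-month mouse 3 or 12-month mouse 3 (adjusted p up to 0.14 and 0.24), whereas 4 genes were called without 10-month mouse 1 and 5 without 10-month mouse 4. Among nuclear genes, all 18 tested subunits of ATP synthase were lower with none called by edgeR (1 at an unadjusted p under 0.05, 1 called by DESeq2 and 0 by limma-voom), and 33 of 37 complex I genes were lower with 2 called (1 without 10-month mouse 3, 10-month mouse 5, 12-month mouse 1 or 12-month mouse 3). Of these Ndufa8 went from between 92.7 and 127 CPM at 10 months to between 65.7 and 80.9 CPM at 12 months with no overlap (log2 fold change -0.58 ± 0.15, adjusted p = 0.0066). Ndufa8 was called lower in FVB mice too (-0.48, adjusted p = 0.028), with no called strain difference (adjusted p = 0.93). That FVB call was lost without FVB 10-month mouse 1 or FVB 12-month mouse 1, 2, 3 or 4 (adjusted p up to 0.13). The ATP synthase median was -0.15 and the complex I median -0.17. With the length and GC offset these medians were -0.13 and -0.07. In FVB mice they were -0.18 and -0.09, beside -0.09 for the fatty acid list and -0.06 for the citric acid cycle. Over all genes tested, 7651 of 15129 were lower and 2.62% were called lower.

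**Figure D4:**
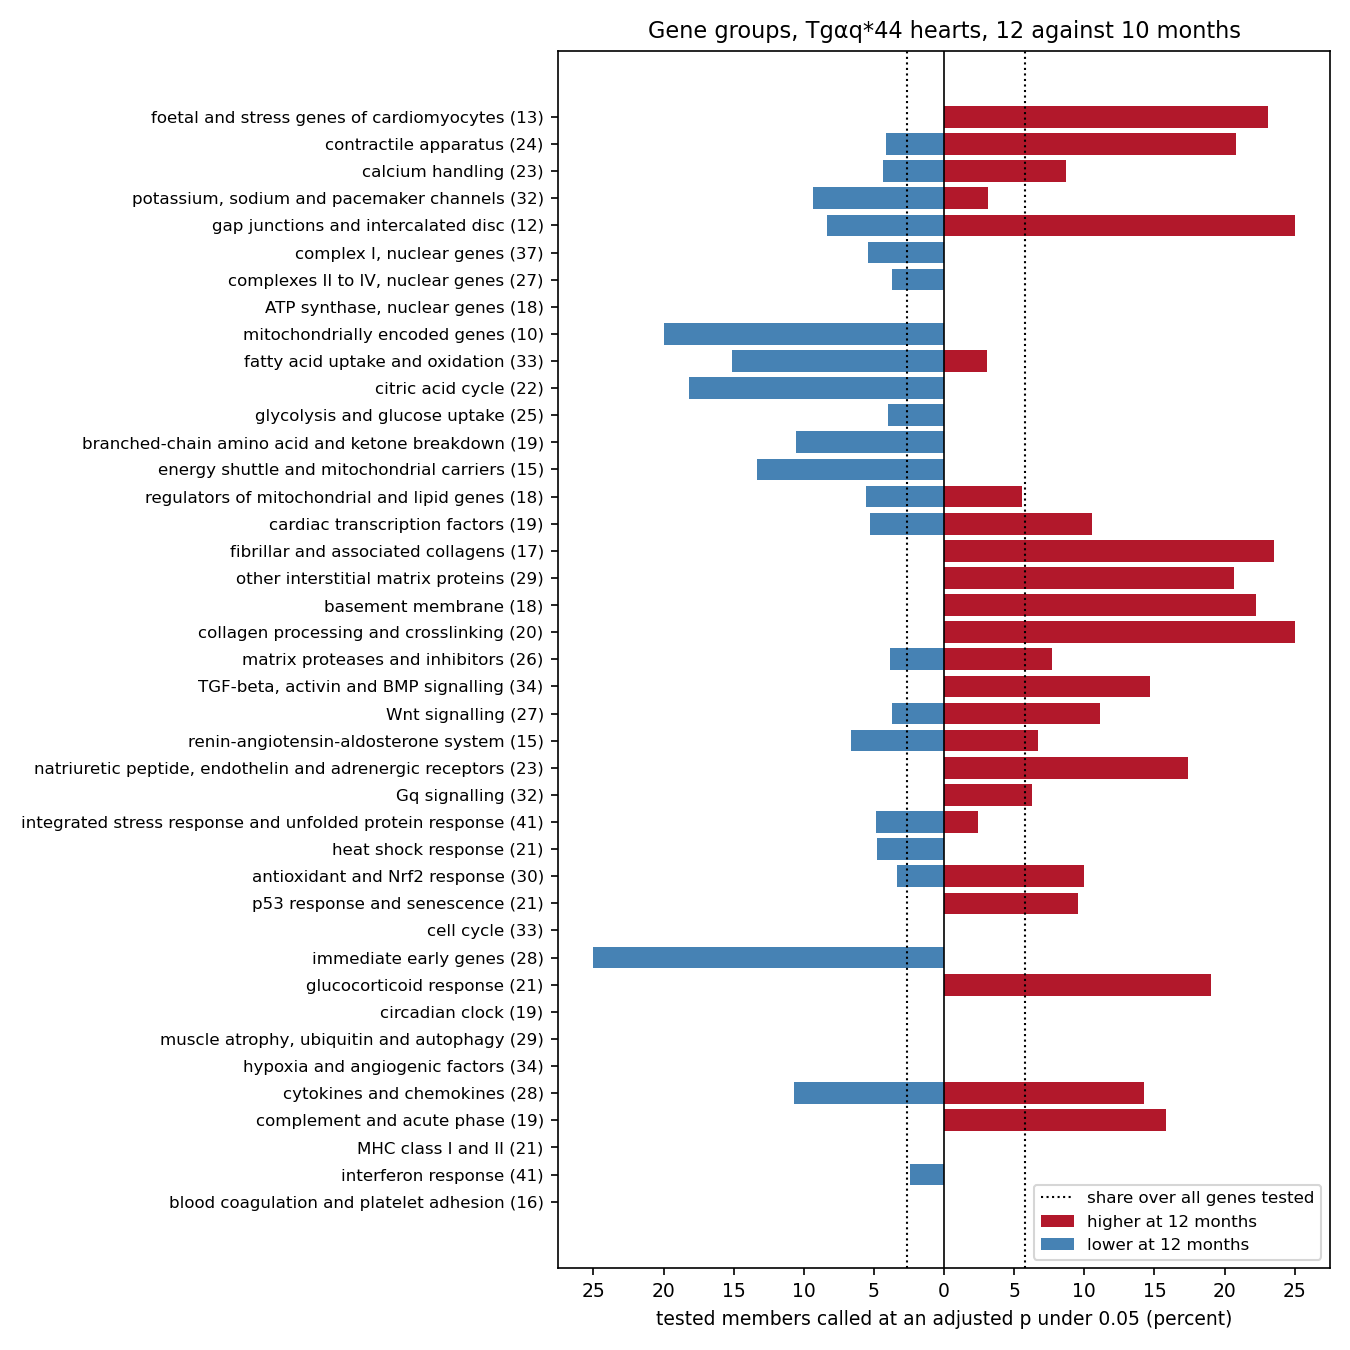
Bars give the percentage of each gene list's tested members called higher or lower at 12 than at 10 months in Tgαq*44 mice, and dotted lines mark the percentages over all 15129 genes, 5.76% higher and 2.62% lower. Gap junction, foetal, contractile, matrix, crosslinking and glucocorticoid lists are among those that extend to the higher side. Immediate early, mitochondrially encoded, citric acid cycle and fatty acid lists are among those that extend to the lower side.

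Extracellular matrix genes leaned upwards. Of 17 fibrillar and associated collagens, 4 rose and none fell (median 0.21), of 29 other interstitial matrix genes 6 rose (median 0.32), of 18 basement membrane genes 4 (median 0.07) and of 20 genes of collagen processing and crosslinking 5 (median 0.13), with none fallen in any of these lists in the full fit. Leaving out single mice gave 3 to 4, 4 to 7, 3 to 4 and 4 to 6 rises. Without 10-month mouse 3 the medians were 0.06, 0.37, 0.05 and 0.09. In FVB mice the medians were 0.14, 0.01, 0.09 and 0.04, with 2, 3, 2 and 0 risen (4.94% of all genes). The collagens summed to 1694 to 4151 CPM at 10 months and 2388 to 4206 CPM at 12 months, overlapping ranges. With the length and GC offset, 3, 8, 2 and 4 rose, 1 collagen and 2 genes of collagen processing and crosslinking fell, and the basement membrane median was -0.02. Eln (chr5:134702593-134747323 on GRCm38.p6), elastin, was at 12.1, 15.1, 14.4, 11.6 and 11.1 CPM at 10 months and at 25.8, 33.5, 40.5, 36.4 and 38.8 at 12 months, with no overlap, a 2.72-fold rise (log2 fold change 1.44 ± 0.18, adjusted p = 3.99e-07). At 14 months it was back at 14.2 ± 2.90 CPM (SD, n = 5; 14 against 12 months -1.30 ± 0.18, adjusted p = 1.06e-05). FVB mice rose by 0.73 ± 0.20 over the same step, a call lost without FVB 10-month mouse 1 or FVB 12-month mouse 4 (adjusted p up to 0.091). Col6a5, a chain of the microfibrillar collagen VI, was at 2.76, 2.32, 1.42, 2.38 and 2.35 CPM and then at 9.701, 10.5, 8.86, 6.92 and 4.81 CPM (log2 fold change 1.86 ± 0.32, adjusted p = 7.97e-05), with mouse 5 the lowest of the older mice. Col12a1, a collagen that decorates fibrils, went from 16.1, 12.26, 7.91, 14.0 and 10.4 to 33.9, 37.5, 24.1, 24.1 and 25.3 CPM (log2 fold change 1.26 ± 0.20, adjusted p = 2.21e-05) and stood near 1 CPM in FVB mice at every age. Col14a1 of the same class rose by 0.78 ± 0.15 from between 54.2 and 74.3 CPM at 10 months to between 93.8 and 122 CPM at 12 months. It rose in FVB mice too (log2 fold change 0.63, adjusted p = 0.0067), with no called strain difference (0.14, adjusted p = 0.89). Thsd4, a protein that binds fibrillin microfibrils, rose by 1.22 ± 0.14, from between 5.06 and 7.55 CPM at 10 months to between 11.7 and 16.3 CPM at 12 months, the highest 10-month value being that of mouse 4 against at most 5.27 CPM in the others. FVB mice rose for Thsd4 as well (log2 fold change 0.77, adjusted p = 6.46e-04), with no called strain difference (0.45, adjusted p = 0.34).

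Lox, the lysyl oxidase that crosslinks collagen and elastin, was at 3.83, 3.88, 3.13, 7.95 and 3.63 CPM at 10 months and at 10.5, 10.5, 15.2, 7.54 and 5.20 at 12 months. 10-month mouse 4 lay within the 12-month range (log2 fold change 1.11 ± 0.24, adjusted p = 0.0017). The rise was followed by a fall to 2.89 ± 0.838 CPM at 14 months (SD, n = 5; -1.76 ± 0.25, adjusted p = 1.69e-05), and FVB mice stayed at 1.40 and 1.41 CPM. Its relatives Loxl3 and Loxl4 rose by 0.78 ± 0.16 and 0.75 ± 0.19, with no overlap for Loxl3, from between 9.61 and 13.1 CPM at 10 months to between 16.0 and 23.9 CPM at 12 months. The Loxl4 call was lost in a fit of only the groups compared (adjusted p = 0.069). Pcolce2, which enhances the cleavage of procollagen, was at 44.3, 48.4, 45.8, 41.3 and 43.0 CPM and then at 63.3, 64.5, 79.4, 60.5 and 57.6 CPM (log2 fold change 0.55 ± 0.09, adjusted p = 4.69e-05). It differed from the change in FVB mice (0.76 ± 0.13, adjusted p = 6.26e-04), where it stood at 23.1 ± 2.87 and 19.9 ± 1.25 CPM (SD, n = 5). Mfap5, a microfibril protein, went from between 122 and 186 CPM at 10 months to between 189 and 289 CPM at 12 months, and Comp, the pentameric cartilage matrix protein that also marks activated fibroblasts, from between 5.39 and 11.3 CPM at 10 months to between 8.79 and 20.9 CPM at 12 months. The Comp call (log2 fold change 0.77 ± 0.21, adjusted p = 0.014) was lost without 10-month mouse 4 or 12-month mouse 1 (adjusted p up to 0.13). In the basement membrane, Nid1, the nidogen that links laminin with collagen IV, rose by 0.63 ± 0.12 without overlap and the laminin chain Lamb1 by 0.58 ± 0.14 with overlap. In FVB mice Lamb1 rose by 0.50 (adjusted p = 0.019), whereas Nid1 was not called (0.31, adjusted p = 0.12). The FVB call of Lamb1 was lost without FVB 10-month mouse 5 or FVB 12-month mouse 1 or 3 (adjusted p up to 0.083). Mmp9, a gelatinase that neutrophils carry, fell from 5.59, 6.13, 3.77, 3.97 and 4.91 to 1.47, 1.36, 2.95, 2.37 and 3.26 CPM (log2 fold change -1.09 ± 0.28, adjusted p = 0.0084).

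Thbs4, a thrombospondin that cardiomyocytes and fibroblasts secrete under load, was at 62.4, 35.1, 38.1, 54.4 and 59.6 CPM at 10 months and at 110.1, 82.0, 50.8, 77.5 and 85.4 at 12 months (log2 fold change 0.70 ± 0.16, adjusted p = 0.0022). The ages overlapped through 12-month mouse 3, and the call held with any mouse left out. FVB mice stayed at 12.0 and 12.4 CPM. Its promoter window (RefSeq, GRCm38.p6, chr13:92794769-92795068, minus strand) is shown because, of the called matrix genes whose windows were searched, it had the smallest p among those with a motif. It carries the MCAT letters at 197 and, sharing a base with the first copy, at 192 bases before the start.
Thbs4: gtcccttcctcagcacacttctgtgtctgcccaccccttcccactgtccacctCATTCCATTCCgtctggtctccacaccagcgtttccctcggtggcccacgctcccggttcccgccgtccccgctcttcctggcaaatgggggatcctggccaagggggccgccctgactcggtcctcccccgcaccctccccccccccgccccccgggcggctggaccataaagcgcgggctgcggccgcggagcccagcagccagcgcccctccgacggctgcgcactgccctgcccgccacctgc

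The TGF-β, activin and BMP list had 5 risen and no fallen genes of 34 (median 0.19), and 1 to 6 with single mice left out, with 1 without 12-month mouse 2, 2 without 10-month mouse 2 or 12-month mouse 3 and 3 without 10-month mouse 1, 10-month mouse 5 or 12-month mouse 4. Tgfb2 was at 214, 202, 159.6, 219 and 224 CPM at 10 months and at 270.4, 274, 402, 231 and 223 at 12 months, overlapping, with 12-month mouse 3 the highest (log2 fold change 0.46 ± 0.14, adjusted p = 0.028). The call was lost without 10-month mouse 2, 10-month mouse 3, 12-month mouse 2 or 12-month mouse 3 (adjusted p up to 0.23). Its strain difference (0.86, adjusted p = 0.016) was lost without 12-month mouse 3 (adjusted p = 0.061). Tgfbr3, the co-receptor betaglycan, rose from between 47.6 and 70.2 CPM at 10 months to between 66.7 and 114 CPM at 12 months (log2 fold change 0.62 ± 0.14, adjusted p = 0.0016) with 12-month mouse 5 inside the 10-month range. Other genes known from fibrosis, Timp1, Sfrp2, Itga11 and Cilp, were not called by edgeR (log2 fold changes 0.03 ± 0.25, 0.63 ± 0.21, -0.24 ± 0.19 and 0.66 ± 0.24, adjusted p = 0.97, 0.055, 0.52 and 0.076). Sfrp2 was called in 3 of the 10 alternative settings and Cilp in 2, limma-voom among them for both (adjusted p = 0.014 and 0.022). Of these Timp1 fell from 12 to 14 months, from 40.8 ± 11.6 to 16.6 ± 4.11 CPM (SD, n = 5; -1.30 ± 0.26, adjusted p = 0.0020). The sum of the 10 fibroblast markers was 5716 to 6980.1 CPM at 10 months and 5194 to 7033 at 12 months, with 1 of 10 risen (5.76% over all genes), and that of the 9 markers of activated fibroblasts 679 to 1015 and 859 to 1194 CPM, with 2 of 9 risen (1 without 12-month mouse 1). Their part in the matrix changes was not tested.

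Immune genes moved in both directions, 4 of 28 cytokines and chemokines upwards and 3 downwards. The falls numbered 1 without 10-month mouse 4, 12-month mouse 1 or 12-month mouse 2 and 5 without 12-month mouse 5. Ccl6, a chemokine of macrophages, was at 19.4, 27.5, 18.0, 20.7 and 17.7 CPM at 10 months and at 66.8, 77.7, 39.7, 76.2 and 31.1 at 12 months. Every older mouse was above every younger one (log2 fold change 1.49 ± 0.21, adjusted p = 3.53e-06), and the level returned to 22.3 ± 7.23 CPM at 14 months (SD, n = 5; -1.39 ± 0.21, adjusted p = 3.77e-05). FVB mice had 13.2 and 13.6 CPM, and the strain difference was 1.45 ± 0.30 (adjusted p = 0.0064). Its neighbour Ccl9 was at 5.82, 9.33, 6.13, 8.17 and 8.90 CPM and then at 26.9, 30.4, 21.8, 26.6 and 7.24 CPM, mouse 5 staying at the 10-month level (log2 fold change 1.55 ± 0.24, adjusted p = 2.12e-05). Cd163, the haptoglobin-haemoglobin receptor of resident macrophages, went from 3.14, 2.52, 1.71, 2.95 and 1.71 to 7.76, 6.30, 4.39, 6.61 and 4.98 CPM with no overlap (log2 fold change 1.31 ± 0.21, adjusted p = 2.37e-05; strain difference 1.32 ± 0.29, adjusted p = 0.0096). Lyve1, a hyaluronan receptor of lymphatic endothelium and of some resident macrophages, went from 21.7, 22.9, 25.1, 24.7 and 26.9 to 55.4, 56.4, 49.4, 47.3 and 30.1 CPM (log2 fold change 0.97 ± 0.17, adjusted p = 6.91e-05). The 14 macrophage markers summed to 314 to 353 CPM at 10 months and 359 to 433 CPM at 12 months, with Cd163 and Lyve1 the 2 called members. Whether cell number took part was not tested.

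Il33, an alarmin of stromal and endothelial nuclei, went from 9.04, 6.81, 9.69, 9.02 and 10.3 to 18.8, 14.5, 16.0, 14.8 and 9.51 CPM in Tgαq*44 mice (log2 fold change 0.71 ± 0.19, adjusted p = 0.013), a call lost without 10-month mouse 2 or 12-month mouse 1 (adjusted p up to 0.065), and fell in FVB mice from 8.49 ± 0.509 to 4.89 ± 0.480 CPM (SD, n = 5; strain difference 1.51 ± 0.28, adjusted p = 0.0018). Monocyte chemokines fell. Ccl2 was at 9.35, 7.43, 6.77, 14.8 and 10.5 CPM and then at 3.47, 3.96, 4.79, 4.03 and 7.35 CPM, mouse 5 overlapping (log2 fold change -1.04 ± 0.29, adjusted p = 0.018), and was lost without 10-month mouse 4, 12-month mouse 1 or 12-month mouse 2 (adjusted p up to 0.076). Ccl7 was at 0.926 to 3.63 CPM at 10 months and fell by 1.28 on the log2 scale (adjusted p = 0.0080). C7, the complement component that opens the membrane attack complex to the lipid bilayer, was at 9.88, 10.9, 7.26, 8.68 and 6.05 CPM and then at 31.1, 28.0, 32.8, 19.3 and 18.5 CPM without overlap (log2 fold change 1.60 ± 0.21, adjusted p = 5.72e-07), and Chil1, a chitinase-like protein of macrophages and stromal cells, went from between 1.99 and 4.70 CPM at 10 months to between 5.14 and 12.4 CPM at 12 months (log2 fold change 1.44 ± 0.27, adjusted p = 2.07e-04). Among 21 MHC genes none was called by edgeR, limma-voom or DESeq2, and 2 had an unadjusted p under 0.05. Markers of T and NK cells summed to at most 7.59 CPM in any mouse.

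Immediate early genes, transcribed within minutes of a stimulus, formed the list with the largest share of falls among the pathway lists of at least 20 genes. Of 28, 7 fell and none rose, with a median of -0.50. Egr1 was at 136, 102, 205, 159 and 279.8 CPM at 10 months and at 32.7, 34.5, 63.5, 93.8 and 63.1 at 12 months, with no overlap (log2 fold change -1.62 ± 0.46, adjusted p = 0.018). Its call was lost without 10-month mouse 5, 12-month mouse 1 or 12-month mouse 2 (adjusted p up to 0.064). Egr2 was at 26.3, 8.11, 26.9, 28.5 and 51.2 CPM and then at 6.76, 4.80, 16.6, 6.19 and 12.6 CPM, 10-month mouse 2 lying among the older mice (log2 fold change -1.58 ± 0.33, adjusted p = 0.0012), and was called with any mouse left out but not in a fit of only the groups compared (adjusted p = 0.10). Egr3 was at 52.9, 19.1, 45.0, 72.8 and 105 CPM and then at 23.5, 17.2, 27.2, 24.7 and 39.6 CPM (log2 fold change -1.16 ± 0.35, adjusted p = 0.032), and was lost without 10-month mouse 4, 10-month mouse 5, 12-month mouse 1, 12-month mouse 2, 12-month mouse 3 or 12-month mouse 4 (adjusted p up to 0.15). Zfp36, which speeds the decay of cytokine mRNAs, fell by 0.86 and Jun by 0.63 on the log2 scale, lost without 10-month mouse 3 or 12-month mouse 2 and without 10-month mouse 5 (adjusted p up to 0.18 and 0.17). 10-month mouse 5 was the highest of its group for Egr1, Egr2, Egr3 and Jun, and 2 genes of the list fell without it, with 3 without 12-month mouse 1 or 12-month mouse 2. In FVB mice 2 of the 28 fell (2.84% of all genes), and the median was -0.49, close to that of Tgαq*44 mice. The promoter window of Egr2 (RefSeq, GRCm38.p6, chr10:67535249-67535548, plus strand) is shown as that of a called member that held with any mouse left out. It holds the E-box CACGTG, in capitals, 27 bases before the start, a motif found in 10.1% of the 10999 promoters of genes tested and 7.24% of all RefSeq promoters of this length.
Egr2: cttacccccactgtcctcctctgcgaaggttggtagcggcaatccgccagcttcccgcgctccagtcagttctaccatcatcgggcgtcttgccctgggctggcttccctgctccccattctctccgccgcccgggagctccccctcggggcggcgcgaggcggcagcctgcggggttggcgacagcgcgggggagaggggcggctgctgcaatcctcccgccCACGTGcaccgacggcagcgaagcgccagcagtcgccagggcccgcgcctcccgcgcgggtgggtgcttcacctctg

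The glucocorticoid-responsive genes leaned the other way, with 4 of 21 risen and none fallen (median 0.41), with 1 risen without 12-month mouse 1 or 12-month mouse 2 and 2 without 10-month mouse 4. Mt1, a metal-binding metallothionein, was at 89.7, 81.1, 164, 74.6 and 116 CPM at 10 months and at 268, 331, 225, 301 and 208 at 12 months, with no overlap and a call in every fit (log2 fold change 1.34 ± 0.28, adjusted p = 0.0013). Fkbp5, a chaperone of the glucocorticoid receptor, was at 9.35, 12.2, 10.8, 9.08 and 15.2 CPM and then at 40.7, 38.3, 19.6, 20.5 and 18.7 CPM (log2 fold change 1.29 ± 0.36, adjusted p = 0.016). 12-month mice 1 and 2 stood far above the other 3, and the call was lost without either (adjusted p up to 0.062). The same mice were highest for Zbtb16, at 115 and 103 CPM against 41.6 to 65.9 in the others (log2 fold change 1.10 ± 0.30, adjusted p = 0.014, lost without 10-month mouse 4, 12-month mouse 1 or 12-month mouse 2, adjusted p up to 0.068). 

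In the renin-angiotensin-aldosterone list, 1 of 15 rose and 1 fell (5.76% and 2.62% over all genes). Agt, angiotensinogen, was at 1.92, 2.18, 4.06, 1.76 and 1.71 CPM and then at 4.29, 3.83, 7.02, 4.75 and 4.20 CPM (log2 fold change 1.05 ± 0.28, adjusted p = 0.012), lost without 12-month mouse 3 (adjusted p = 0.065). Mme, the peptidase neprilysin that degrades natriuretic peptides and angiotensins, went from between 2.06 and 4.82 CPM at 10 months to between 1.34 and 2.59 CPM at 12 months (log2 fold change -0.98 ± 0.29, adjusted p = 0.027), lost without 10-month mouse 2, 10-month mouse 3, 10-month mouse 4, 12-month mouse 3, 12-month mouse 4 or 12-month mouse 5 (adjusted p up to 0.081). Ace, the angiotensin-converting enzyme, was at 226, 278, 264, 212 and 281 CPM and then at 338, 348, 308, 364 and 343 CPM, with no overlap, but the change did not pass the test (log2 fold change 0.43 ± 0.16, adjusted p = 0.094). It passed in the same 3 alternative settings as that of Acta1, at adjusted p of 0.026 to 0.042. The stress hormone Gdf15 and the cell cycle inhibitor Cdkn1a were not called (-0.82 ± 0.39 and 0.41 ± 0.33, adjusted p = 0.21 and 0.53).

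None of the 19 genes of the circadian clock was called in Tgαq*44 mice by edgeR, limma-voom or DESeq2, with 4 at an unadjusted p under 0.05. In FVB mice 9 were called, 2 higher and 7 lower (4.94% and 2.84% of all genes), and the change differed between the strains for 6. Arntl, which encodes the clock activator BMAL1, was at 22.7, 49.5, 26.4, 23.7 and 13.7 CPM at 10 months and at 25.4, 28.2, 19.95, 20.2 and 22.2 at 12 months in Tgαq*44 mice, and at 6.28, 10.4, 8.69, 12.5 and 15.1 and 27.2, 27.8, 24.8, 30.8 and 26.9 CPM in FVB mice. The FVB ages did not overlap (log2 fold change 1.38 ± 0.28, adjusted p = 0.0012), and the strain difference (-1.60, adjusted p = 0.024) was lost without 10-month mouse 2 (adjusted p = 0.074). Cry2, a repressor of the clock, was at 50.9, 44.1, 50.6, 36.9 and 50.2 CPM and then at 55.9, 49.5, 56.2, 64.4 and 59.7 CPM in Tgαq*44 mice (log2 fold change 0.30 ± 0.12, adjusted p = 0.13), whereas it fell in FVB mice from 79.0 ± 10.5 to 43.7 ± 3.81 CPM (SD, n = 5; strain difference 1.15 ± 0.17, adjusted p = 1.03e-04). Tef, a clock output factor, had a strain difference of 1.08 ± 0.22 (adjusted p = 0.0050). The levels of these genes depend on the time of day, which is not stated in the sources used here, so that age and hour of dissection cannot be told apart.

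Other lists held no call in Tgαq*44 mice by edgeR. Of 33 cell cycle genes none was called (1 at an unadjusted p under 0.05, 0 called by DESeq2 and 0 by limma-voom). Of 29 genes of muscle atrophy, ubiquitin and autophagy none was called (4 at an unadjusted p under 0.05, 0 and 0 by the other tools), and of 34 genes of hypoxia and angiogenesis none (4 at an unadjusted p under 0.05, 0 and 0).

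Genes of red blood cells were also higher at 12 months, 4 of 5 markers called, with a summed level of 241 to 812 CPM at 10 months and 399.7 to 3231 at 12 months. The β-globin gene Hbb-bs was at 556, 164, 188, 351 and 231 CPM and then at 289, 836, 1969.8, 1153 and 359.8 CPM (log2 fold change 1.63 ± 0.49, adjusted p = 0.028), and Alas2, the haem enzyme of red cell precursors, at 21.6, 8.65, 13.9, 17.1 and 12.9 and then 11.9, 45.8, 135, 65.1 and 21.1 CPM (log2 fold change 1.90 ± 0.50, adjusted p = 0.010). The ages overlapped for both. Reads can be shared between Hbb-bs and its near-identical neighbour. Without 12-month mouse 3, the highest for both genes, 1 of the 5 markers was called, and 2 were called without 10-month mouse 2, 3 or 5 or 12-month mouse 4. Hbb-bs was lost without 10-month mouse 2, 10-month mouse 3, 10-month mouse 5, 12-month mouse 3 or 12-month mouse 4 (adjusted p up to 0.17) and Alas2 without 12-month mouse 3 (adjusted p = 0.11). The part of blood left in the tissue in other changes was not tested.

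**Figure D5:**
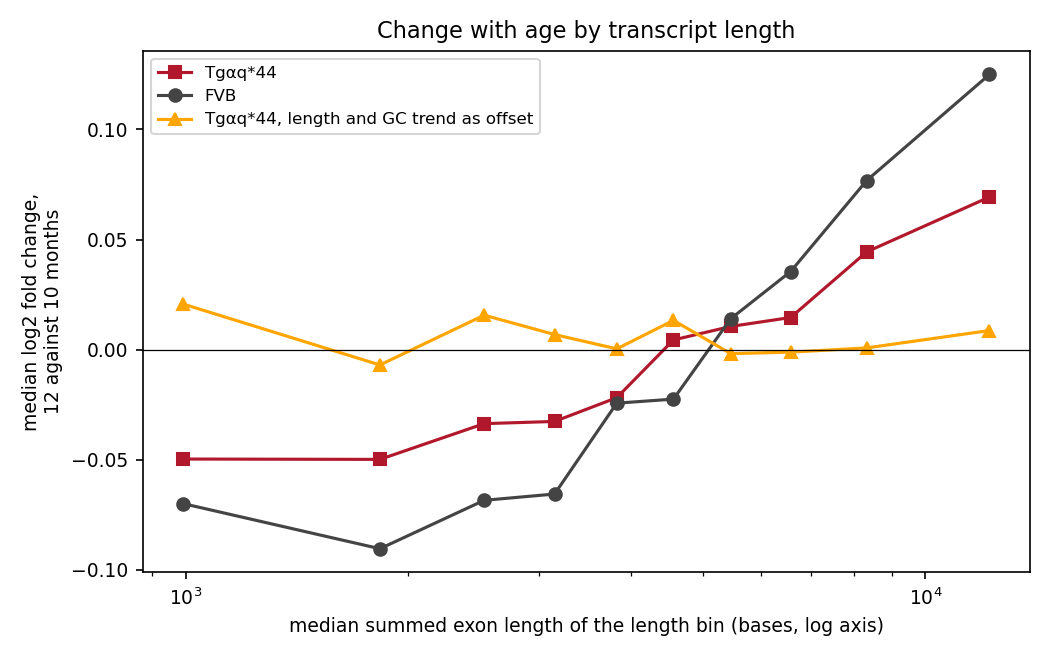
Median log2 fold change of 12 against 10 months in 10 equal bins of the genes by summed exon length in bases (log axis), in FVB mice, in Tgαq*44 mice and in Tgαq*44 mice with the length and GC trend as an offset. The Tgαq*44 medians run from -0.05 in the shortest to 0.07 in the longest bin and the FVB medians from -0.07 to 0.12, whereas the offset leaves at most 0.02.

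Transcript length moved with the change in both strains, with a Spearman correlation across 15124 genes of 0.137 in Tgαq*44 and 0.227 in FVB mice, given as a description since genes of a library share its depth and quality. Genes that rose in FVB mice had a median exon length of 7634.5 bases and those that fell 3456.5 bases. Of the shared rises, that of Hipk2 was 2.06 in log2 under the offset in place of 2.17 and that of Heg1 1.43 in place of 1.57. Whether the shared rises as a set kept their size under the offset was not tested. The calls of Myom2, mt-Co1, mt-Nd1, Hadhb, Dlst, Eci1 and Ccl2 were lost under it, and those of Hadha, Cs, Myh7, Myom1, Itgb6, Eln, Lox, Ccl6 and Mt1 were kept. Counts of some lists moved as well. Under the offset 0 mitochondrially encoded genes, 5 complex I genes and 3 heat shock genes fell, 3 calcium-handling genes rose and 3 fell, and 4 channel genes rose and 4 fell. Falls of fatty acid genes numbered 6 in place of 5 (median -0.23 in place of -0.14). For the citric acid cycle they numbered 6 in place of 4 (median -0.18 in place of -0.23). Immediate early genes had 9 falls in place of 7.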

How the data were processed

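Poly-A selected, strand-marking libraries of the apex of the heart from 50 mice were sequenced by the authors, who trimmed reads with Cutadapt, mapped them with STAR on GRCm38.p6 and counted them over the exons of each gene with HTSeq, tool versions not being given in the sources used here. The deposited values are raw counts per gene, without normalization. All 50 sample columns were used. Groups were taken from the strain and age in the labels, with 5 mice each.

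The 15129 genes that exceeded 0.5 CPM in over 3 mice of any group were kept, scaled with TMM factors, and fitted with edgeR 4.0.16 (robust quasi-likelihood, R 4.3.3) as 1 model of 10 strain and age groups, which share 1 estimate of the spread. Contrasts were 12 against 10 months in Tgαq*44 mice, the same in FVB mice, their difference, and 14 against 12 months in Tgαq*44 mice. P-values were adjusted with Benjamini-Hochberg over all genes. Log2 fold changes are given ± standard error and levels as CPM with TMM factors. A share of counts was compared by an exact two-sided permutation test over mice. DESeq2 1.42.0, limma-voom (limma 3.58.1), another filter, a fit of only the groups compared, a replicate block, an offset for transcript length and GC content (chosen after seeing the data) and leaving out single mice served as alternatives. Within the Tgαq*44 groups of 10 and of 12 months, no pair of libraries was alike within sampling noise. Other pairs were not compared.

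Genes were named by fixed rules: up to 15 per direction with the largest change among protein-coding DEGs without overlap at 5 CPM or more, up to 10 per direction with the smallest p in the Tgαq*44 change and in the strain difference, members of 63 gene lists, genes the study names, Gnaq, Ace and mitochondrially encoded genes. Members and lists were chosen with earlier results of these data known. Promoters, from 250 bases before to 50 after the start, were read from RefSeq (GRCm38.p6) and searched on both strands for 7 motifs (CACGTG, TTATGNAA, TGACGTCA, TGATGNAA, TNAAGGTCA, GAANNTTC and CATTCC). Some genes that the rules name are not reported here.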

Additional observations from a re-analysis of the deposited data

Results flagged for a closer look

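Single mice stood far from the other 4 of their group in 22 of 258 values examined, by a gap over 0.71 of the group's range, which chance gives in about 1 of 20 groups. 10-month mouse 3 held 7 of them, each above its group: the share of mitochondrially encoded counts (23.6%, next 17.3%), mt-Co1 (110322 CPM), mt-Nd1 (55562.5 CPM), Cs (2508 CPM), Slc25a20 (97.2 CPM), Agt (4.06 CPM) and Kif6 (5.98 CPM). The other values at 10 months were Hipk2 (32.9 CPM) and Tgfbr3 (47.6 CPM) in mouse 1, both low, Thsd4 (7.55 CPM) and Lox (7.95 CPM) in mouse 4, both high, and Nppa (2941 CPM) and Jun (186 CPM) in mouse 5, both high. At 12 months, mouse 3 was high for Lgi2 (9.58 CPM), Tgfb2 (402 CPM) and Agt (7.02 CPM), mouse 2 was high for Nid1 (434 CPM) and Cdkn1a (162 CPM), mouse 4 was high for Kif6 (1.76 CPM), mouse 5 was low for Ppara (11.4 CPM) and Tef (97.1 CPM), and mouse 1 was low for Itgb6 (1.88 CPM).

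For 35 of the genes named by the rules, the change from 10 to 12 months differed between Tgαq*44 and FVB mice at an adjusted p under 0.05 in edgeR (difference in log2 fold change, Tgαq*44 minus FVB). Over all 15129 genes tested it differed for 188 (1.24%). A rule named up to 10 genes per direction for the smallest p in this same comparison, so their calls followed from that choice. The difference was positive for 2610028H24Rik (3.01), Lgi2 (2.23), Rhobtb1 (1.56), Il33 (1.51), Myom2 (1.48), Ccl6 (1.45), Ccl9 (1.43), Myh7 (1.34), Lonrf1 (1.34), Cd163 (1.32), Etv5 (1.24), Cry2 (1.15), Tef (1.08), Serpinb6b (1.00), Lyve1 (0.88), Tgfb2 (0.86), Pdzd2 (0.84), Kalrn (0.81), Pcolce2 (0.76), Mylk3 (0.67) and Hip1 (0.49). It was negative for Itgb6 (-2.43), Tenm4 (-1.72), Arntl (-1.60), Iqgap2 (-1.55), Lrrc55 (-1.53), Hs3st5 (-1.49), D7Ertd443e (-1.48), Kif6 (-1.43), Fam19a3 (-1.40), Ky (-1.37), Lrtm1 (-1.24), Bdh1 (-1.03), Armc2 (-0.83) and Sema6d (-0.82). In 28 of the 35 genes the call held with any 1 of the 20 mice left out, in the same mice that the rule used. The exceptions were Ky, D7Ertd443e, Hip1, Tgfb2, Ccl9, Lyve1 and Arntl, with adjusted p up to 0.062, 0.064, 0.065, 0.061, 0.076, 0.11 and 0.074. The calls of Ccl9 and Lyve1 were each lost without any 1 of 12 and 15 mice, respectively, and that of D7Ertd443e without FVB 12-month mouse 1, 10-month mouse 3 or 12-month mouse 2.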

How the results depend on the processing

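Of 108 named genes called in the change in Tgαq*44 mice, 78 were called with any of the 10 mice left out and 72 in every alternative, while 31 were lost in at least 1 of the 10 other settings, 26 in a fit of only the groups compared, 18 with no filter on low counts, 8 with the length and GC offset and 1 each with limma-voom, median-of-ratios size factors and a filter over all libraries. The count of 1269 was 745 with no filter on low counts, with 669 in FVB mice, 111 for the strain difference and 249 for 14 against 12 months. A fit of only the groups compared gave 853 genes and 158 DEGs in Tgαq*44 mice. It gave 561 genes in FVB mice, 88 for the strain difference and 246 for 14 against 12 months. DESeq2 gave 299 and the length and GC offset, chosen after seeing the data, 442 for the strain difference. Leaving out 1 mouse gave 853 to 1473 genes and 156 to 276 DEGs in Tgαq*44 mice, 699 to 1784 genes in FVB mice (699, 707 and 743 without FVB 12-month mouse 1, 10-month mouse 5 and 12-month mouse 3), 103 to 274 for the strain difference (119, 122, 123 and 124 without FVB 10-month mouse 5, 10-month mouse 2, 12-month mouse 3 and 12-month mouse 1), 188 to 549 for 14 against 12 months (188, 196, 302 and 320 without 14-month mouse 5, 12-month mouse 2, 14-month mouse 4 and 12-month mouse 3), and -4.33 to -2.19 points for the mitochondrial share. Named changes that turned sign were those of Etv5 (-0.11 to 0.12 with 1 mouse left out, -0.0055 without 10-month mouse 4, -0.11 without 12-month mouse 3), Nppa (-0.11 to 0.37, -0.11 without 12-month mouse 4), Timp1 (-0.18 to 0.29, -0.050, -0.18 and -0.055 without 10-month mice 2, 3 and 5, -0.080 and -0.10 without 12-month mice 2 and 5) and Arntl (-0.41 to 0.093, 0.093 without 10-month mouse 2), none of them called. The cause was not tested. The main fit did not treat mouse numbers as pairs. Deviations of same-numbered mice correlated at -0.11 to 0.10 between 10 and 12 months in Tgαq*44 mice, at -0.32 to 0.28 in FVB mice and at -0.32 to 0.05 between 12 and 14 months in Tgαq*44 mice, and 1, 1 and 0 of 5 mice matched their own number best. With the number as a replicate block, 1695 genes and 236 DEGs were called in Tgαq*44 mice, 1571 in FVB mice, 319 for the strain difference and 767 for 14 against 12 months. Whether the number follows a shared source of variation was not tested. Depth limits genes of a few CPM such as Kif6 and Hcn4.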
